A study of Mus musculus with 8 samples.

Results

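ATAC, a histone acetyltransferase complex named after its Ada-two-A subunit, has 7 subunits that set it apart from its sister complex SAGA, and the genes that encode them, *Zzz3*, *Yeats2*, *Tada2a*, *Kat14*, *Mbip*, *Wdr5* and *Dr1*, were followed here at the level of RNA. They were chosen by name among the 55401 genes counted in mouse embryonic stem cells (ESCs), and all 7 were among the 17532 genes that passed the filter on low counts. The 8 libraries comprised 2 labelled Control, 3 labelled Zzz3 auxin and 3 labelled Yeats2 auxin. In the auxin groups ZZZ3 or YEATS2 was fused to an auxin-inducible degron (AID) and the cells received 500 µM auxin (3-indoleacetic acid) for 24 h. The cells carried Tir1, the rice F-box protein that marks AID fusions for destruction, under G418 selection, and were grown on gelatin in fetal calf serum with LIF and 2i, inhibitors of glycogen synthase kinase 3 and of the MEK kinases that keep ESCs in a naive state. Neither the line nor the treatment of the Control libraries is stated in the labels. The paper's supplement names DMSO-treated ZZZ3-AID and YEATS2-AID cells as the reference of its ATAC estimates, while its methods call the reference wild type. No line is assigned there to a single Control library. Depletion, exposure to auxin and the line therefore cannot be told apart in any comparison with Control. Whether each AID line was a single clone, and whether replicates were separate cultures, is not given in the sources used here, so that p values measure the spread between these libraries, which may be technical.

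ATAC acetylates histones at promoters and enhancers. Its catalytic unit, the histone acetyltransferase (HAT) module, holds KAT2A or KAT2B with TADA3, SGF29 and an Ada2 protein, and this module is shared with SAGA except for the Ada2 protein, which is TADA2A in ATAC and TADA2B in SAGA. YEATS2 reads acylated lysines through its YEATS domain, ZZZ3 reads the tail of histone H3 through its ZZ domain, and KAT14 carries an acetyltransferase domain of its own. MBIP was first described as an inhibitor of the kinase MAP3K12. WDR5 and DR1 also act outside ATAC, WDR5 as a scaffold of H3K4 methyltransferase and NSL complexes and DR1 as one chain of NC2, the dimer that binds the TATA-binding protein (TBP) and represses transcription.

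The number of reads assigned to genes ranged from 14315120 to 27884704, the lowest in Zzz3 auxin replicate 3. The members held 483 to 15636 reads in a library, the fewest for *Mbip* in Zzz3 auxin replicate 3. Counting error was not estimated apart from the spread between libraries. The ESC label was checked against marker genes, in CPM, which is counts scaled to a common library size. In every group the mean of each of the 10 pluripotency markers was at least 1 CPM. Their sum was 4890 to 5742 CPM over the libraries, while the 4 endoderm and 7 fibroblast markers summed to at most 1.54 and 2.23 CPM. In bulk RNA, fewer cells of a type and less RNA per cell cannot be told apart. The libraries differed in how counts followed base composition: genes in the top quartile of GC content (above 53.9%) stood 0.53 (log2) lower relative to genes in the bottom quartile (below 44.3%) in Control replicate 1 and 0.38 higher in Zzz3 auxin replicate 3, and between -0.07 and 0.14 in the other 6 libraries.

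The level of each member was first compared per length, as CPM per kilobase of annotated exon, because longer genes collect more reads. *Wdr5* stood far above the rest with 147.7 ± 9.32 (SD, n = 8 libraries), higher than 98.8% of the genes tested. *Dr1* followed with 29.4 ± 4.20, *Tada2a* with 24.0 ± 2.09 and *Mbip* with 21.9 ± 2.62. The lowest were *Kat14* with 15.1 ± 2.87, *Zzz3* with 13.2 ± 4.17 and *Yeats2* with 8.49 ± 2.48, and even *Yeats2* stood above 67.7% of the genes tested. Only *Wdr5* was separated from its neighbour in every library with no overlap of ranges. *Mbip* exceeded *Kat14* in 8 of 8 libraries with overlapping ranges, *Dr1* exceeded *Tada2a* in 7, *Tada2a* exceeded *Mbip* in 6, and *Kat14* over *Zzz3* and *Zzz3* over *Yeats2* held in 5 of 8 each. Neighbours among the lower 6 genes thus overlapped in range. *Dr1* (at least 23.1) and *Tada2a* (at least 20.3) stayed above the highest values of *Kat14* (18.3), *Zzz3* (16.6) and *Yeats2* (11.5). The length of *Kat14* includes 693 exon bases (14.75%) shared with *Pet117*, where ambiguous reads were not counted. Its level may therefore be understated, and its separation from *Tada2a* was not tested on the remaining bases. The libraries in which *Yeats2* exceeded *Zzz3* were those of Zzz3 auxin. *Kat14* exceeded *Zzz3* in the same libraries and in Yeats2 auxin replicates 2 and 3. In both controls the order was the reverse, with *Zzz3* (mean 16.02) above *Kat14* (mean 12.34). With the longest transcript as length *Zzz3* (20.0) stood above *Kat14* (18.6). *Wdr5* alone made up 52.9% to 61.3% of the summed level of the 7 genes.

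**Figure D1:**
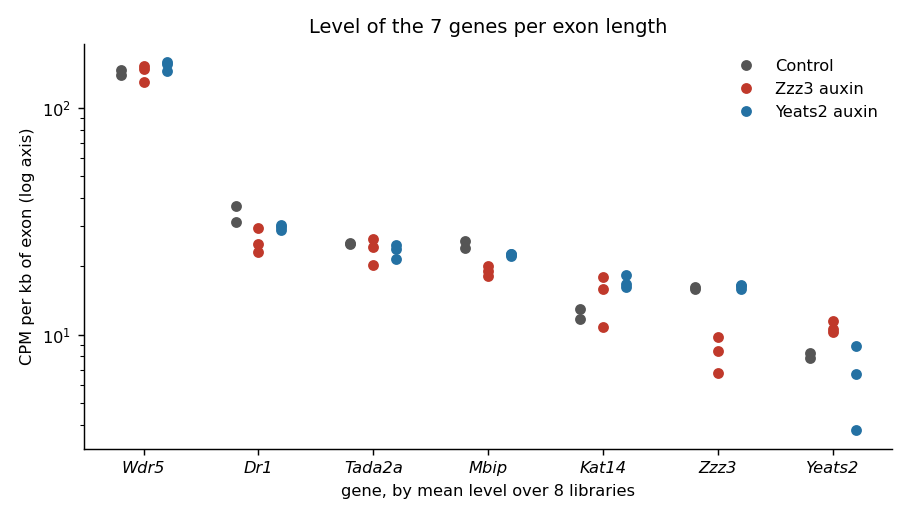
Level of each gene as TMM-scaled CPM per kb of annotated exon (log axis), 1 point per library, coloured by group, with genes ordered by their mean over 8 libraries. *Wdr5* lies between 130.9 and 159.1 in all libraries, above all other genes, and *Zzz3* lies between 6.74 and 9.74 in Zzz3 auxin but between 15.8 and 16.6 in the other 5 libraries.

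The members also differed in how steady they were. Over all 8 libraries the coefficient of variation of CPM was 6.31% for *Wdr5*, 8.71% for *Tada2a*, 12.0% for *Mbip* and 14.3% for *Dr1*, against a median of 19.2% over the genes tested. It was 19.1% for *Kat14*, 29.2% for *Yeats2* and 31.5% for *Zzz3*. The most variable genes were thus those of the proteins that had been depleted.

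*Zzz3* (ENSMUSG00000039068) lies at chr3:152395473-152462826 on the plus strand of GRCm38. Its RNA measured 186.5 and 181.9 CPM in the controls. The Zzz3 auxin libraries held 77.5, 96.9 and 112.0 CPM and the Yeats2 auxin libraries 188.6, 183.3 and 190.9 CPM. All 3 Zzz3 auxin libraries lay below the other 5, and the Yeats2 auxin libraries overlapped the controls. *Zzz3* RNA fell in Zzz3 auxin to 0.518 of control (95% interval 0.419 to 0.641, log2 fold change (FC) -0.95 ± 0.14 (SE), edgeR adjusted p = 0.0187), the one member called in this comparison, in which 0.753% of the genes tested were called. In Yeats2 auxin the log2 FC against Control was 0.03 with an interval from -0.28 to 0.34. The degron acts on the protein, so RNA of the target gene was not a measure of how complete the depletion was. The direction held in all 15 alternatives (log2 FC -1.06 to -0.80), but the adjusted p depended on the libraries that set the common spread: it was 0.293 without Control replicate 1, 0.0781 without Control replicate 2, 0.0516 without Zzz3 auxin replicate 1, and 0.0645 and 0.0521 with Yeats2 auxin replicate 1 or 3 left out. It was 0.159 with only the compared groups in the fit.

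*Yeats2* (ENSMUSG00000041215, chr16:20141063-20232573, plus strand) measured 90.9 and 95.8 CPM in the controls and 133.2, 119.4 and 123.1 CPM in Zzz3 auxin. In Yeats2 auxin it measured 77.3, 103.4 and 43.7 CPM. The 3 Zzz3 auxin libraries were the highest of all 8, while those of Yeats2 auxin ranged from the lowest value of the series to one above both controls. Neither comparison passed the test: the log2 FC against Control was 0.42 ± 0.27 in Zzz3 auxin (interval -0.17 to 1.01, adjusted p = 0.386) and -0.32 ± 0.26 in Yeats2 auxin (interval -0.90 to 0.26, adjusted p = 0.605). The Yeats2 auxin value rested on replicate 3, since it was -0.05 without that library and -0.63 without replicate 2. With the replicate number as a block the value in Zzz3 auxin was 0.61.

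*Yeats2* scattered more among the Yeats2 auxin libraries than nearly all other genes did. The SD of its log2 CPM was 0.627 there, against a median of 0.138 over the genes tested, and 44 of 17532 genes (0.251%) had a larger one. The other 6 members had SDs between 0.016 and 0.103 in the same 3 libraries. The counts behind the *Yeats2* values were 1998, 2857 and 1105 reads, in libraries of 25957155, 27884704 and 25260238 assigned reads. Elsewhere the SD of *Yeats2* was 0.054 (Control) and 0.081 (Zzz3 auxin). *Zzz3* in its own depletion had an SD of 0.266 beside a median of 0.220 over the genes tested, with 38.8% of them larger.

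**Figure D2:**
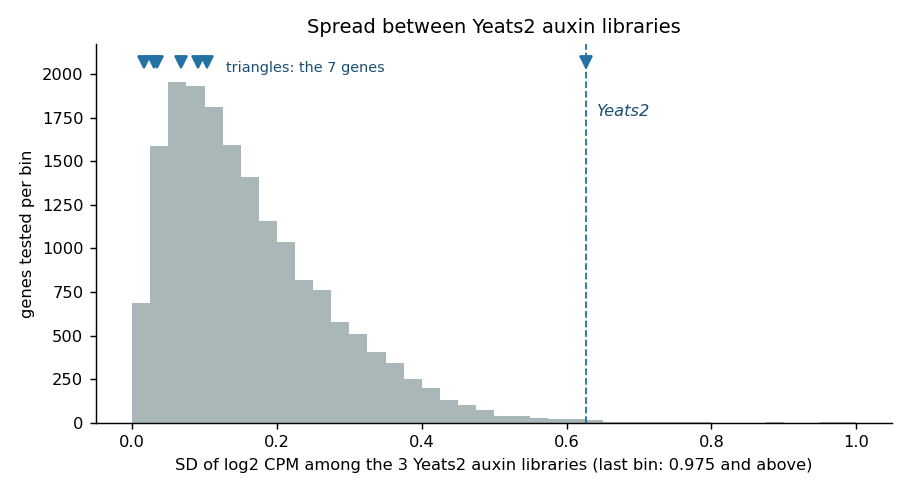
Histogram of the SD of log2 CPM among the 3 Yeats2 auxin libraries for the 17532 genes tested (x axis, log2 units; y axis, genes per bin), with triangles at the 7 members. *Yeats2* at 0.627 lies in the far tail, while the other 6 members lie at 0.103 or below.

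Set against each other per length, the genes of both depleted proteins stood in the opposite order in Zzz3 auxin. The ratio of *Zzz3* to *Yeats2* was 2.07 and 1.91 in the controls. In Zzz3 auxin it was 0.586, 0.818 and 0.917, below 1 in all 3 libraries. In Yeats2 auxin it was 2.46, 1.79 and 4.40, the highest value being that of replicate 3. The direct comparison of Yeats2 auxin with Zzz3 auxin gave a log2 FC of 0.98 ± 0.13 for *Zzz3* (interval 0.70 to 1.26), the lowest p of all 17532 genes (7.97e-06), yet an edgeR adjusted p of 0.140. For *Yeats2* it gave -0.74 ± 0.24 (interval -1.27 to -0.22, adjusted p = 0.779, and -0.47 without Yeats2 auxin replicate 3). edgeR called no member and no other gene in this comparison (0.0% of the genes tested), and 3 of 7 members had an unadjusted p under 0.05 (6.25% of the genes tested). The libraries did not overlap for *Zzz3* and *Mbip*, which were higher in Yeats2 auxin (5.25% of the genes tested), and for *Yeats2*, which was lower (5.82%). DESeq2 called 3 genes (0.00909%), among them *Zzz3* (adjusted p = 5.59e-07), limma-voom called *Zzz3* with an adjusted p of 0.00616, and edgeR called it without Zzz3 auxin replicate 3 (log2 FC 1.11, adjusted p = 0.00902). With no filter on low counts edgeR called both *Zzz3* and *Yeats2*. Other alternatives gave no call for *Zzz3*, at a log2 FC of 0.84 to 0.99: the adjusted p was 0.540 with only the compared groups, 0.525 after the correction for GC content and length, and 0.944, 0.790 and 0.941 without Yeats2 auxin replicate 1, 2 and 3. Zzz3 auxin and Yeats2 auxin were different AID lines, so the depleted protein and the line cannot be told apart here either. Both groups of this comparison received auxin. The controls do not enter its log2 FC but help to set the common spread, and without Control replicate 1 or 2 the adjusted p was 0.340 or 0.388.

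**Figure D3:**
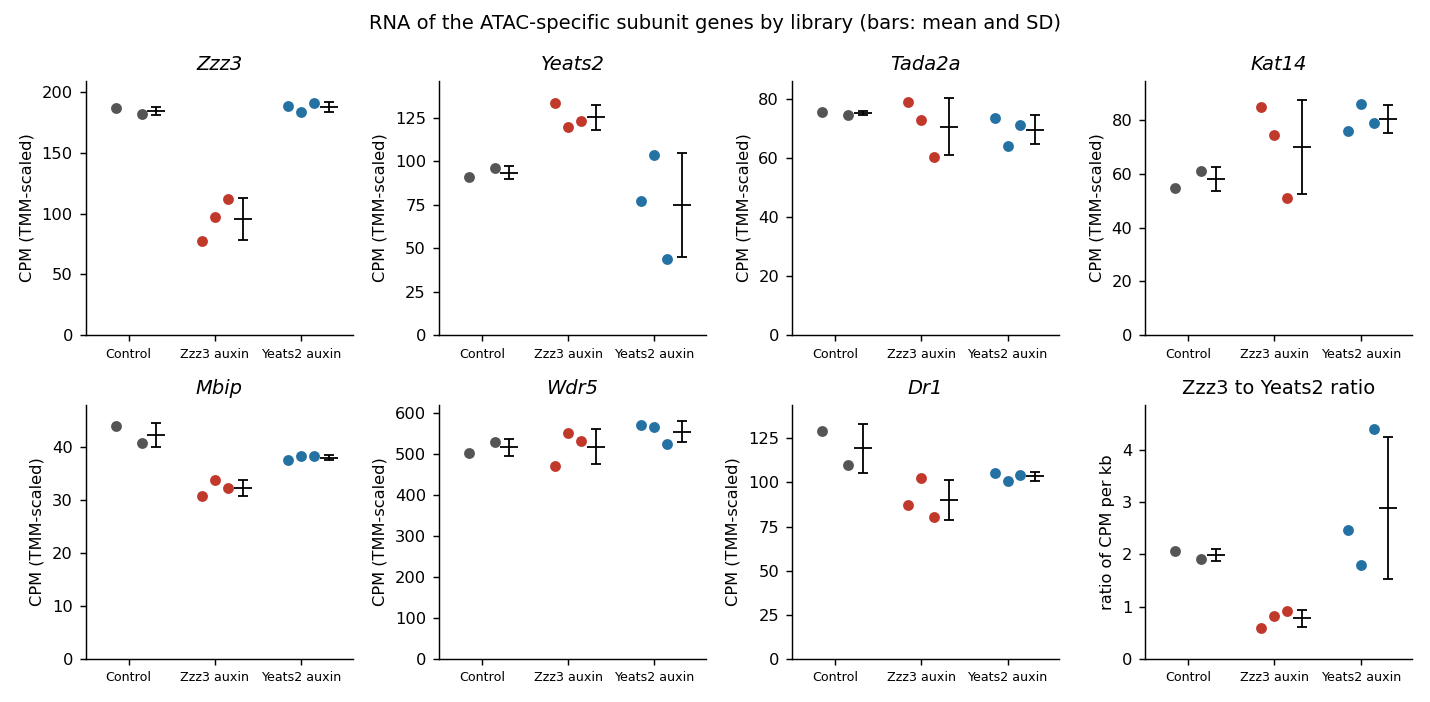
CPM (TMM-scaled) of each gene in each library, and in the last panel the ratio of *Zzz3* to *Yeats2* per kb, with the group mean and SD beside the points (n = 2 Control, 3 Zzz3 auxin, 3 Yeats2 auxin). The Zzz3 auxin libraries are apart from all others for *Zzz3* (77.5 to 112.0 CPM) and for *Mbip* (30.8 to 33.8 CPM), and *Yeats2* ranges from 43.7 to 103.4 CPM in Yeats2 auxin.

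*Tada2a* (ENSMUSG00000018651, chr11:84078920-84129600, minus strand), the Ada2 protein that gave ATAC its name, measured 75.6 and 74.7 CPM in the controls. It measured 79.0, 72.7 and 60.2 CPM in Zzz3 auxin and 73.6, 64.1 and 71.1 CPM in Yeats2 auxin. The Zzz3 auxin libraries spanned the controls, and those of Yeats2 auxin lay just below them. The log2 FC was -0.09 (interval -0.38 to 0.21, adjusted p = 0.745) in Zzz3 auxin, where it was 0.03 without replicate 3, and -0.11 (interval -0.40 to 0.18, adjusted p = 0.739) in Yeats2 auxin.

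*Kat14* (ENSMUSG00000027425, chr2:144368983-144407676, plus strand) measured 54.8 and 61.2 CPM in the controls. It measured 76.1, 86.0 and 78.9 CPM in Yeats2 auxin, all above both controls. In Zzz3 auxin it measured 84.7, 74.3 and 50.9 CPM, 2 libraries above and replicate 3 below the controls. The log2 FC was 0.47 ± 0.18 in Yeats2 auxin (unadjusted p = 0.0261, edgeR adjusted p = 0.269) and 0.27 ± 0.18 in Zzz3 auxin (adjusted p = 0.412), neither past the threshold. Without Zzz3 auxin replicate 3 the latter was 0.47 and with a correction for GC content and length 0.14. With only the Control and Yeats2 auxin libraries in the fit, *Kat14* was called in Yeats2 auxin (log2 FC 0.49, adjusted p = 0.0490). The direct comparison gave 0.20 (interval -0.16 to 0.55), so a difference between both depletions was not shown.

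*Kat14* shares 693 of its annotated exon bases (14.75%) with *Pet117* on the same strand. The counting left out reads that fell on more than 1 gene, and *Pet117* was listed at 0 in all 8 libraries. With such reads left out, the 0 does not show that *Pet117* was not expressed. *Ak5* overlaps *Zzz3* on the opposite strand by 12 exon bases (0.10%) and held 0 to 9 reads. The pseudogene *Gm10241* lies within *Yeats2* on the opposite strand with no shared exon base and was listed at 0. None of these 3 genes passed the filter on low counts.

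*Mbip* (ENSMUSG00000021028, chr12:56328303-56345894, minus strand) measured 44.0 and 40.7 CPM in the controls. It measured 30.8, 33.8 and 32.3 CPM in Zzz3 auxin and 37.6, 38.3 and 38.3 CPM in Yeats2 auxin. The 3 groups did not overlap, with Zzz3 auxin lowest and Control highest. The log2 FC against Control was -0.39 ± 0.12 in Zzz3 auxin (unadjusted p = 0.00675, edgeR adjusted p = 0.109) and -0.15 ± 0.12 in Yeats2 auxin (adjusted p = 0.579), and the direct comparison gave 0.24 ± 0.11 (unadjusted p = 0.0475, adjusted p = 0.779). *Dr1* (ENSMUSG00000029265, chr5:108268897-108280526, plus strand) measured 129.1 and 109.6 CPM in the controls. Its values were 87.3, 102.5 and 80.4 CPM in Zzz3 auxin and 105.5, 100.7 and 104.1 CPM in Yeats2 auxin. All 6 auxin libraries lay below both controls, and the auxin groups overlapped each other. The log2 FC of *Dr1* was -0.41 ± 0.13 in Zzz3 auxin (unadjusted p = 0.00905, adjusted p = 0.118) and -0.21 ± 0.13 in Yeats2 auxin (adjusted p = 0.483).

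The values of *Mbip* and *Dr1* depended on a correction for GC content and length, which were removed together, so that either property alone was not tested. Their longest transcripts had the lowest GC content of the 7 genes, 42.0% and 40.9%, both in the bottom quartile, whose counts were relatively high in Control replicate 1. When the dependence of counts on GC content and length was removed from every library, the log2 FC in Zzz3 auxin was -0.16 for *Mbip* (adjusted p = 0.490) and -0.18 for *Dr1* (adjusted p = 0.396), and in Yeats2 auxin 0.03 and -0.02. Without Control replicate 1 and with no such correction they were -0.34 and -0.29 in Zzz3 auxin. *Zzz3*, whose GC content of 43.9% also falls in the bottom quartile, had a log2 FC of -0.83 after the correction (adjusted p = 0.0397).

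*Wdr5* (ENSMUSG00000026917, chr2:27515157-27536535, plus strand) measured 501.9 and 530.5 CPM in the controls. It measured 470.6, 551.6 and 533.1 CPM in Zzz3 auxin and 572.2, 565.7 and 524.6 CPM in Yeats2 auxin. The groups overlapped in all 3 comparisons. The log2 FC was 0.01 (interval -0.24 to 0.25) in Zzz3 auxin, where its sign changed between settings, and 0.10 (interval -0.15 to 0.35) in Yeats2 auxin.

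**Figure D4:**
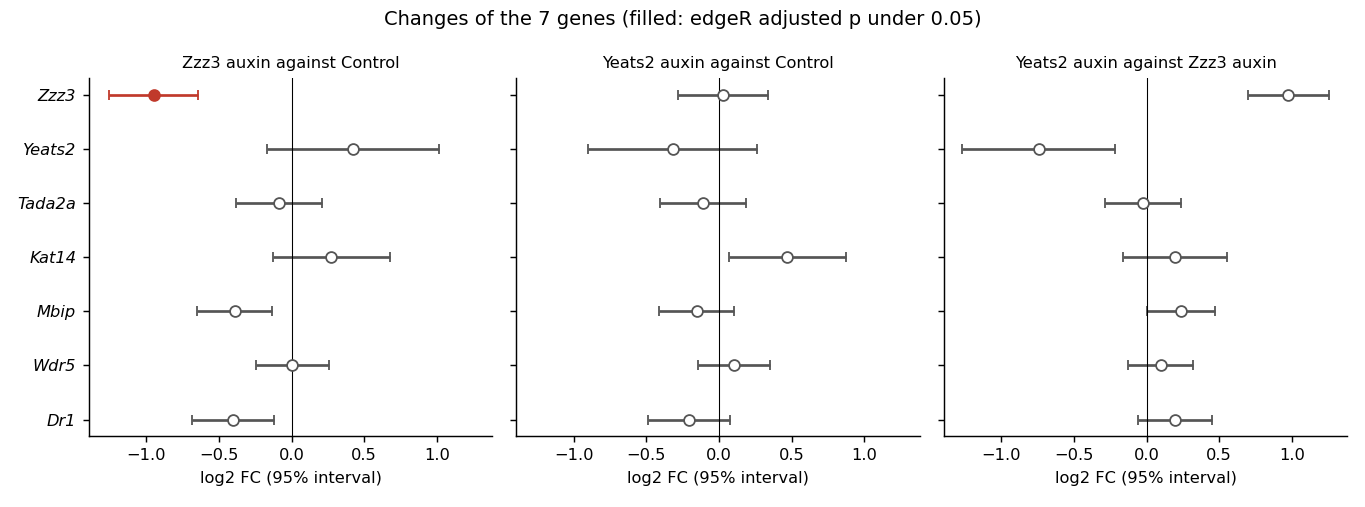
Log2 FC of each gene with its 95% interval from edgeR in the 3 comparisons, filled in red where the adjusted p was under 0.05. Only *Zzz3* in Zzz3 auxin is filled (-0.95, interval -1.26 to -0.64), and in the direct comparison the intervals of *Zzz3* (0.70 to 1.26) and *Yeats2* (-1.27 to -0.22) lie on opposite sides of 0.

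Counted together in Zzz3 auxin against Control, 1 of 7 members was called, lower, where 0.753% of the genes tested were called in either direction, 0.496% as higher and 0.257% as lower. An unadjusted p under 0.05 was found for 3 members (*Zzz3*, *Mbip* and *Dr1*), where 21.7% of the genes tested had one. The libraries did not overlap for 3 members that were lower and 1 that was higher, *Yeats2*, against 18.9% and 16.8% of the genes tested. The median log2 FC of the 7 was -0.09, beside 0.01 over all genes tested. In Yeats2 auxin against Control edgeR called 0 of 7 members (0.445% of the genes tested, 0.331% as higher and 0.114% as lower), DESeq2 (2.75% of its genes) and limma-voom called 0 as well, and 1 member (*Kat14*) had an unadjusted p under 0.05 (14.6% of the genes tested). Here 3 members were lower with no overlap (*Tada2a*, *Mbip* and *Dr1*) and 1 was higher (*Kat14*), against 21.0% and 19.3% of the genes tested, and the median was -0.11 beside -0.01. These comparisons share the 2 control libraries, so their values are not independent. Summed over the 7 genes, the level per kb was 263.9 and 265.4 in the controls. The Zzz3 auxin libraries had 237.0, 261.9 and 241.9 and those of Yeats2 auxin 275.7, 273.7 and 259.6, with overlap between the auxin groups. Without *Wdr5* the sums were 124.3 and 117.8 in the controls and 106.1, 108.5 and 93.7 in Zzz3 auxin. In Yeats2 auxin they were 116.6, 116.4 and 113.7. The 3 groups did not overlap, but the lower control (117.8) was close to the highest Yeats2 auxin library (116.6). How often sums of other genes separate in this way was not tested, and the sums were not corrected for GC content and length. *Zzz3*, *Mbip* and *Dr1* are part of these sums.

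**Figure D5:**
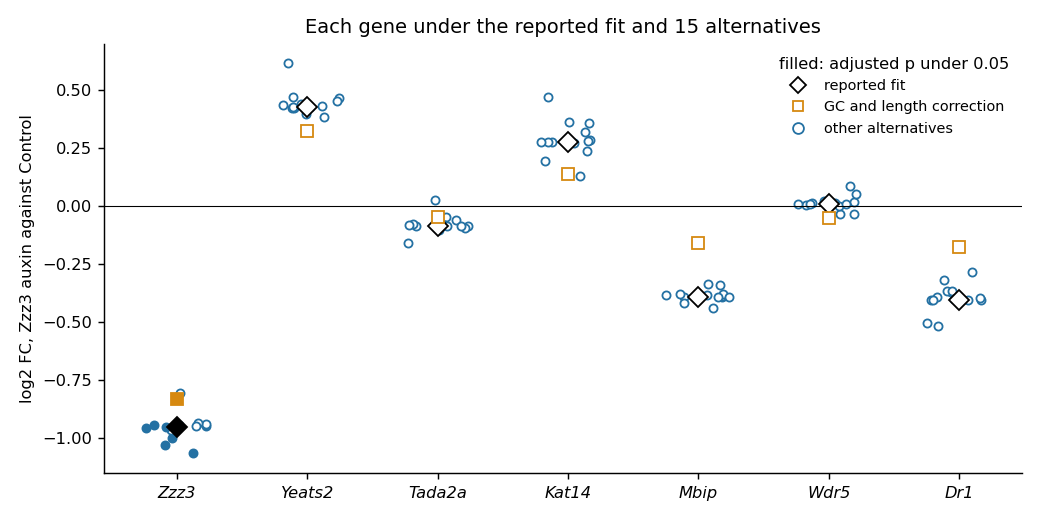
Log2 FC in Zzz3 auxin against Control (y axis) for each gene (x axis) under the reported fit (diamond), the correction for GC content and length (square) and 14 other alternatives (circles), filled where the adjusted p was under 0.05. *Zzz3* stays between -1.06 and -0.80, while the corrected values of *Mbip* (-0.16) and *Dr1* (-0.18) stand apart from their other values.

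The sequences upstream of the genes are shown for the 2 depleted subunits and for *Mbip* and *Dr1*, whose uncorrected RNA was below both controls in all 6 auxin libraries. Of the genes tested, 18.9% in Zzz3 auxin and 21.0% in Yeats2 auxin lay below the controls with no overlap. The share in both was not counted. After the correction for GC content and length the log2 FC in Yeats2 auxin was 0.03 for *Mbip* and -0.02 for *Dr1*. The sequences are the 250 bases before a RefSeq gene start on GRCm38.p6, written in the direction of transcription. Capitals mark the GC box GGGCGG or its complement CCGCCC, the CCAAT box or its complement ATTGG, and the E-box CACGTG. For *Zzz3* the window belongs to the second of 3 RefSeq starts (chr3:152395753-152396002, plus strand), which has the most CpG dinucleotides of these starts. The windows of *Yeats2* (chr16:20140813-20141062, plus strand), *Mbip* (chr12:56345895-56346144, minus strand) and *Dr1* (chr5:108268647-108268896, plus strand) end at the annotated start of the gene.
Zzz3: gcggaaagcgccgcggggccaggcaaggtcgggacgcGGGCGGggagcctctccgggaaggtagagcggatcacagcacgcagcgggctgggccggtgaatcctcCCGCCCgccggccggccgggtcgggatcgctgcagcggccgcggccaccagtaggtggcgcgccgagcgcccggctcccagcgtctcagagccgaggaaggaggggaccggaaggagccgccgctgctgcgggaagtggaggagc
Yeats2: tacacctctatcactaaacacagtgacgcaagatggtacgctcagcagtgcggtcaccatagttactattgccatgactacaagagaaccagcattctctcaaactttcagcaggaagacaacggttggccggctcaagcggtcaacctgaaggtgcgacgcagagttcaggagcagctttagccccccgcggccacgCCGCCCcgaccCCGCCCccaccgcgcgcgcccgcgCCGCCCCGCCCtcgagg
Mbip: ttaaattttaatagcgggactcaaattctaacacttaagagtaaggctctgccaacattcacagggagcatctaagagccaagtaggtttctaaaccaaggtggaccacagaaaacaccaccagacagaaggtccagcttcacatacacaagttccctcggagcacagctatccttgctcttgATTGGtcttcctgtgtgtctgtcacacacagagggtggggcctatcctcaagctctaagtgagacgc
Dr1: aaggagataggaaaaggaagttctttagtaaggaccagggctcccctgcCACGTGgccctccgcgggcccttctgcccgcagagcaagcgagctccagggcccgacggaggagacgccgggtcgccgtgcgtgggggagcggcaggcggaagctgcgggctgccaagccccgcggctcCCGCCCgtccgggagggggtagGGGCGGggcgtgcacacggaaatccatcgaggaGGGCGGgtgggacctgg

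The start of *Zzz3* shown was chosen as the one with the most CpG dinucleotides, and the window before its first annotated start held 6. The chosen window of *Zzz3* held 34 CpG dinucleotides, *Yeats2* 23 and *Dr1* 25, whereas *Mbip* held 3, beside a median of 6 over 32851 RefSeq windows of the same length. *Tada2a* held 36, *Kat14* 27 and *Wdr5* 12 (sequences not shown). GC boxes, searched on both strands with overlapping matches counted, numbered 4 upstream of *Yeats2*, 3 of *Dr1*, 2 of this start of *Zzz3* and 2 of *Tada2a*, 1 each of *Kat14* and *Wdr5* and 0 of *Mbip*, and 32.7% of all windows held at least 1. The CCAAT box was found upstream of *Mbip* alone (33.8% of all windows), an E-box upstream of *Dr1* and *Tada2a* (6.02%), and the letters TATAAA in none of the 7 genes (12.4%). A match is a description of the letters only. *Mbip* and *Dr1* had no motif in common among those searched.

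The HAT module that ATAC shares with SAGA was measured through *Kat2a* and *Kat2b*, its alternative acetyltransferases, *Tada3*, its adaptor, and *Sgf29*, the reader of methylated H3K4. edgeR, DESeq2 and limma-voom called 0 of these 4 genes in all 3 comparisons, while 3, 3 and 0 had an unadjusted p under 0.05, beside 21.7%, 14.6% and 6.25% of the genes tested in Zzz3 auxin, Yeats2 auxin and the direct comparison. *Kat2a* measured 83.9 and 100.2 CPM in the controls, with 119.2, 116.9 and 100.2 CPM in Zzz3 auxin and 128.3, 111.2 and 119.8 CPM in Yeats2 auxin. *Kat2b* measured 153.6 and 148.2 CPM in the controls, with 131.2, 127.2 and 125.2 CPM in Zzz3 auxin and 117.6, 114.1 and 122.9 CPM in Yeats2 auxin. All 6 auxin libraries were thus above the controls for *Kat2a*, one of them narrowly, and below them for *Kat2b*. Among the genes tested, 16.8% in Zzz3 auxin and 19.3% in Yeats2 auxin lay above the controls with no overlap. Another 18.9% and 21.0% lay below them. The log2 FC was 0.28 (adjusted p = 0.230) and 0.38 (adjusted p = 0.219) for *Kat2a* and -0.24 (adjusted p = 0.207) and -0.35 (adjusted p = 0.161) for *Kat2b*, in Zzz3 auxin and Yeats2 auxin in turn. *Tada3* had 0.24 and 0.36 and *Sgf29* 0.42 and 0.18. After the correction for GC content and length the values of *Kat2a* and *Tada3* in Zzz3 auxin were -0.0091 and -0.0033, those in Yeats2 auxin were both 0.17, and *Sgf29* had 0.26 and 0.054. Without Control replicate 1 the value of *Tada3* in Zzz3 auxin was 0.081 and that of *Kat2a* 0.16.

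Other partners of the members were followed through lists. Of 11 genes of the H3K4 methyltransferase complexes that hold WDR5, edgeR called 0 in each comparison, with 2, 0 and 1 at an unadjusted p under 0.05 in the same order, beside 21.7%, 14.6% and 6.25% of the genes tested. The gene nearest to a call was *Cxxc1*, which encodes the CpG-binding subunit of SET1 complexes, with a log2 FC of 0.63 in Zzz3 auxin (edgeR adjusted p = 0.113, DESeq2 adjusted p = 0.0424, 0.29 after the correction for GC content and length). Of 8 genes of the NSL complex edgeR called 0, with 2, 1 and 0 at an unadjusted p under 0.05. *Kat8*, its acetyltransferase for histone H4, reached a log2 FC of 0.56 in Zzz3 auxin (edgeR adjusted p = 0.0655, DESeq2 adjusted p = 0.00554) and 0.40 in Yeats2 auxin (adjusted p = 0.192), and 0.48 in Zzz3 auxin after that correction. DESeq2 called 1 gene in each of these lists in Zzz3 auxin, where it called 7.81% of the genes it tested. The median log2 FC in Zzz3 auxin was 0.12 over the H3K4 genes and 0.07 over the NSL genes.

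Of 7 genes for the partner of DR1 in NC2 and for factors around TBP, 0 were called, with 1 at an unadjusted p under 0.05 in each comparison (21.7%, 14.6% and 6.25% of the genes tested), and DESeq2 called 0. *Gtf2a2*, the small subunit of TFIIA, which competes with NC2 for TBP, stood at -0.32 on the log2 scale in Zzz3 auxin (adjusted p = 0.164) and -0.31 in Yeats2 auxin (adjusted p = 0.267), and -0.091 (adjusted p = 0.756) and -0.13 (adjusted p = 0.708) after the correction for GC content and length. Of the 7 genes, 4 were lower with no overlap in each comparison with Control, against 18.9% and 21.0% of the genes tested. Their median was -0.12 in Zzz3 auxin and -0.14 in Yeats2 auxin. Of 5 paralogs and domain relatives of the members, which include *Tada2b*, *Wdr5b* and the YEATS-domain genes *Yeats4*, *Mllt1* and *Mllt3*, 0 were called by edgeR or DESeq2, with 1, 0 and 0 at an unadjusted p under 0.05. In Zzz3 auxin the lowest p was that of *Wdr5b*, the paralog of *Wdr5* (log2 FC -0.38, adjusted p = 0.211). *Map3k12*, the kinase that MBIP binds, had 0.04 in Zzz3 auxin (adjusted p = 0.893) and -0.02 in Yeats2 auxin (adjusted p = 0.970), and changed sign between settings.

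Genes whose log2 CPM followed each member most closely over the 8 libraries were sought among the 10432 that averaged 5 CPM or more. The Pearson correlation was 0.995 for *Tada2a* with *Psme3*, 0.991 for *Dr1* with *Abcd3* and 0.982 for *Kat14* with *Eftud2*. It was 0.981 for *Mbip* with *C230096K16Rik* and 0.977 for *Wdr5* with *Frmd6*. The depleted genes had the least close companions, with 0.953 for *Zzz3* and *Nif3l1* and 0.919 for *Yeats2* and *Pyurf*. No member was among the 3 closest genes of another. These values describe 8 libraries in 3 groups that also share depth and base composition, and no test was made of them.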

How the data were processed

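The protocol describes total RNA sequenced after ribosomal RNA depletion, whereas the labels name poly(A) RNA, and which holds for these libraries is not settled. The authors deposited raw counts per gene. They had trimmed the reads (cutadapt), discarded those of ribosomal RNA, mapped the rest to mm10 (STAR 2.5.3a) and counted unique reads on Ensembl genes (HTSeq 0.6.1p1, union mode), leaving out ambiguous ones. The strand option is not stated. Each file also held 5 tallies of unassigned reads (63.5% to 69.4% of listed reads), left out here.

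Symbols, positions and exon lengths came from GENCODE annotation of GRCm38 (55141 of 55401 identifiers matched). Genes were filtered with filterByExpr, scaled by TMM and tested with edgeR 4.0.16 (R 4.3.3, robust quasi-likelihood, 8 libraries, a mean per group), two-sided, with Benjamini-Hochberg adjustment over 17532 genes and a threshold of 0.05. Levels are TMM-scaled CPM. SDs of log2 CPM and correlations used a pseudocount of 0.5 CPM. Alternatives were DESeq2 1.42.0, limma-voom 3.58.1 with quality weights, median-of-ratios size factors, no filter, only the compared groups, the replicate number as a block, offsets that remove the dependence of counts on GC content and length in every library (lowess span 0.3), the longest transcript as length, and leaving out each library. The pipeline was tested on simulated data.

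The members and lists were chosen with earlier results of these data known. Named genes were the members, the HAT genes, genes overlapping a member, the lowest-p gene of each other list and the genes most correlated with each member (3 each, of which the first is given), and some genes that met this rule are left unnamed. Depth was 14315120 to 27884704 assigned reads, and the 2 controls limited the precision.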

Additional observations from a re-analysis of the deposited data

How the results depend on the processing

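Over the 315 values of single members under 15 alternatives, 294 kept their direction and their side of the threshold, 6 lost and 6 gained a call, and 9 changed sign. For the other named partner genes 256 of 270 kept both, 5 gained a call and 9 changed sign. In Zzz3 auxin against Control, 0 members were called with only the compared groups in the fit, and 0 to 1 when a library was left out. In Yeats2 auxin against Control 1 member was called with only the compared groups. In the direct comparison 1 was called by DESeq2, 1 by limma-voom, 2 with no filter (*Zzz3*, 0.99, adjusted p = 8.39e-10, and *Yeats2*, -0.73, adjusted p = 0.000445) and 0 to 1 when a library was left out. The cause was not tested, beyond that the first of these fits held fewer libraries.

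With the correction for GC content and length the sign changed for *Wdr5* (-0.052), *Kat2a* (0.28 to -0.0091) and *Tada3* (0.24 to -0.0033) in Zzz3 auxin, and for *Mbip* (-0.15 to 0.025) in Yeats2 auxin. Leaving out a library gave -0.037 to 0.087 for *Wdr5* and -0.16 to 0.027 for *Tada2a* in Zzz3 auxin, and -0.12 to 0.062 for *Tada2a* in the direct comparison. *Map3k12* ranged from -0.027 to 0.13 in Zzz3 auxin and from -0.064 to 0.036 in Yeats2 auxin without a library, and was 0.0061 with no filter and 0.015 with limma-voom in Yeats2 auxin.

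Same-numbered libraries did not deviate together (correlations of -0.172 to 0.196), so the replicate numbers are not taken to pair them. With the replicate number as a block, 42 genes in place of 132 were called in Zzz3 auxin and 32 in place of 78 in Yeats2 auxin, 1, 0 and 0 members were called in the 3 comparisons, and *Zzz3* in Zzz3 auxin had -1.03 (adjusted p = 0.0294), while *Zzz3* in Yeats2 auxin was -0.039 and *Map3k12* 0.000675. Over all genes, calls in Zzz3 auxin and Yeats2 auxin numbered 1079 and 398 with DESeq2, 89 and 388 with limma-voom and 1542 and 553 with no filter.

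The order of the levels was the same with each library left out and with the other size factors. With the longest transcript as length 5 of 7 genes kept their rank and the levels were higher, *Zzz3* 20.0, *Yeats2* 16.1, *Tada2a* 33.2, *Kat14* 18.6 and *Wdr5* 183.8 CPM per kb.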

Other observations

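The nearest tested protein-coding genes on both sides of *Zzz3* and *Yeats2* were looked up after the values of these genes had been seen. *Usp33*, a deubiquitinase gene that ends 1.86 kb before *Zzz3*, measured 141.7 and 135.6 CPM in the controls and 135.4, 129.4 and 100.4 CPM in Zzz3 auxin, with a log2 FC of -0.19 (adjusted p = 0.446). *Pigk*, on the other side, had 0.12 (adjusted p = 0.572). *Klhl24*, which lies 11.8 kb before *Yeats2*, measured 90.4, 82.9 and 84.2 CPM in the Yeats2 auxin libraries, where *Yeats2* itself ranged from 43.7 to 103.4 CPM. The SD of its log2 CPM there was 0.066, and its log2 FC against Control was -0.21 (adjusted p = 0.458). *Map6d1*, 0.73 kb beyond *Yeats2*, was weakly expressed at 1.59, 1.30 and 1.82 CPM in the same libraries. It measured 2.17 and 2.40 CPM in the controls and 2.30, 2.53 and 1.87 CPM in Zzz3 auxin. Its log2 FC in Yeats2 auxin was -0.55 against Control (edgeR adjusted p = 0.358) and -0.52 against Zzz3 auxin (adjusted p = 0.779).

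Markers of the primed state (4 genes) summed to 135.3 to 156.8 CPM in the controls, 154.4 to 179.4 CPM in Zzz3 auxin and 199.5 to 212.5 CPM in Yeats2 auxin, with 2 of 4 genes under 1 CPM in each group. Neuroectoderm markers (3 genes) summed to 40.7 to 42.9, 48.4 to 71.6 and 44.8 to 50.2 CPM. Their part in the values of the members was not tested.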
